A study of Caenorhabditis elegans with 12 samples.

Results

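The genes described here encode the proteins of the mitochondrial ribosome in Caenorhabditis elegans. They were chosen by name, as every gene of the deposited table whose symbol begins with mrpl or mrps followed by a number. This gave 71 genes of the 19568 in the table, 42 of the large subunit (mrpl) and 29 of the small subunit (mrps). Their RNA was measured in whole worms of 4 genotypes, with 3 libraries of each. The double mutant, labelled lonp-1(cmh24)_mrps-38(P210L), carried both mutations. The other groups were lonp-1(cmh24), mrps-38(P210L) and wildtype. The product of lonp-1 is LON, a protease that degrades proteins in the mitochondrial matrix, and that of mrps-38 belongs to the small mitoribosomal subunit. All worms were grown on HT115 E. coli, taken at the L4 larval stage and extracted with Trizol, and strand-specific libraries of their total RNA were read from both ends, 100 bases each. The labels name 1 allele of each gene and call the libraries of a group biological replicates without saying that they came from separate cultures, so the p-values measure the spread between these libraries.

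Mitochondrial ribosomes translate the few proteins encoded by mitochondrial DNA, which are core subunits of the respiratory chain and of ATP synthase. Their RNAs come from the mitochondrial genome, whereas all of their proteins are encoded in the nucleus, made by cytosolic ribosomes and imported. Some of these proteins descend from bacterial ribosomal proteins and others are found only in mitochondria. In C. elegans, knockdown of mitoribosomal proteins such as mrps-5 is known to extend lifespan and to induce the mitochondrial unfolded protein response.

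The libraries held 22614493 to 22890539 reads in genes, and the authors' size factors ran from 0.8479 to 1.2153. The lonp-1 transcript had 1437 ± 43.7 normalized counts in the double mutant, 1339 ± 5.8 in lonp-1(cmh24), 1613 ± 48.6 in mrps-38(P210L) and 1688 ± 61.9 in wildtype (SD, n = 3 each). Markers of maturation, body wall muscle, cuticle and neurons differed between the genotypes. Yolk proteins took 2.45% of reads in the double mutant, 0.948% in lonp-1(cmh24), 0.00171% in mrps-38(P210L) and 0.104% in wildtype. A list of 10 germline genes took 0.161%, 0.127%, 0.0477% and 0.0985% in the same groups, 32 major sperm protein genes 0.744%, 0.161%, 0.00719% and 0.117%, and 6 body wall muscle genes 0.747%, 0.513%, 0.878% and 0.925%. Markers of hypodermis and cuticle took 0.269%, 0.217%, 0.115% and 0.172%, and those of neurons 0.0187%, 0.0264%, 0.0283% and 0.0249%. Intestine markers took 0.197%, 0.166%, 0.216% and 0.179%. Of these lists 1 major sperm protein gene was at 0 in some library. Replicate 3 of mrps-38(P210L) had 0.00383% of reads in yolk proteins and 0.0167% in major sperm proteins. Replicates 1 and 2 had 0.000624% and 0.000681% in yolk proteins, and 0.00245% and 0.00242% in major sperm proteins. Worms also consist of many tissues, so that fewer cells of a type and less RNA per cell cannot be told apart in these bulk libraries. The part of these differences in the results below was not tested.

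All 71 genes were well above the limit for testing, a mean normalized count of 10, and the lowest count of a gene in any library was 287 reads. Per length, their levels over all libraries ran from 8.54 to 137 FPKM (reads scaled to gene length and library size) with a median of 53.3, and 64 of the 71 lay within 2-fold of that median. The median was 50.9 FPKM for the large subunit and 54 FPKM for the small one. The highest levels were those of mrps-14 with 137 FPKM, a protein of the head of the small subunit, of mrpl-11 and mrpl-12 with 116 and 114 FPKM, both at the stalk to which elongation factors bind, and of mrps-11 with 95.9 FPKM. The lowest were mrpl-46 with 22.7 FPKM, mrpl-45 with 18.7 FPKM and mrps-31 with 8.54 FPKM. The replicates lay close together, with a median coefficient of variation over the 71 genes of 2.99% in the double mutant, 5.22% in lonp-1(cmh24), 3.44% in mrps-38(P210L) and 5.45% in wildtype. In 5636 genes of a similar level the medians were 3.14%, 7.17%, 4.62% and 5.54%. Replicate 1 of lonp-1(cmh24) stood apart for 2 genes. It had 1170 normalized counts of mrpl-45 against 669 and 753 in the other replicates, and 461 of mrps-31 against 236 and 278.

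Together the 71 genes took the smallest share of reads in the double mutant. In RPM, the reads in a gene set scaled to the library total, they held 3035, 2989 and 3039 in the double mutant, 3425, 3538 and 3517 in lonp-1(cmh24), 3202, 3159 and 3241 in mrps-38(P210L), and 3489, 3375 and 3401 in wildtype. The double mutant and mrps-38(P210L) did not overlap with each other or with the other groups, while lonp-1(cmh24) and wildtype overlapped. Scaled by the authors' size factors, the order was different. The summed normalized counts were 66363 ± 270 in the double mutant, 66151 ± 440 in lonp-1(cmh24), 84785 ± 430 in mrps-38(P210L) and 75976 ± 2700 in wildtype (SD, n = 3 each). The total of the reads and the size factors thus gave different orders for lonp-1(cmh24), wildtype and mrps-38(P210L), while the double mutant stood below wildtype and mrps-38(P210L) on both.

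Some ratios need no size factor. For each read in the 71 genes there were 42.3 ± 0.92 reads in the 78 genes of the cytosolic ribosome in the double mutant, 38.9 ± 0.62 in lonp-1(cmh24), 65.8 ± 0.55 in mrps-38(P210L) and 51.4 ± 2.7 in wildtype (SD, n = 3 each). The 4 groups did not overlap. The ratio was lower than in wildtype in both genotypes with the lonp-1 mutation and higher in mrps-38(P210L). In the order above, the cytosolic genes held means of 127794, 136038, 210754 and 176133 RPM, and the 71 genes 3021, 3493, 3201 and 3422 RPM. The ratio therefore also reflects differences in the cytosolic genes. The balance of the subunits moved little. The mean log2 normalized count of the large subunit minus that of the small one was -0.14, -0.17 and -0.13 in the double mutant, -0.11, -0.09 and -0.09 in lonp-1(cmh24), -0.14, -0.15 and -0.14 in mrps-38(P210L), and -0.16, -0.15 and -0.16 in wildtype. The 3 lonp-1(cmh24) libraries lay above the 9 others.

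**Figure D1:**
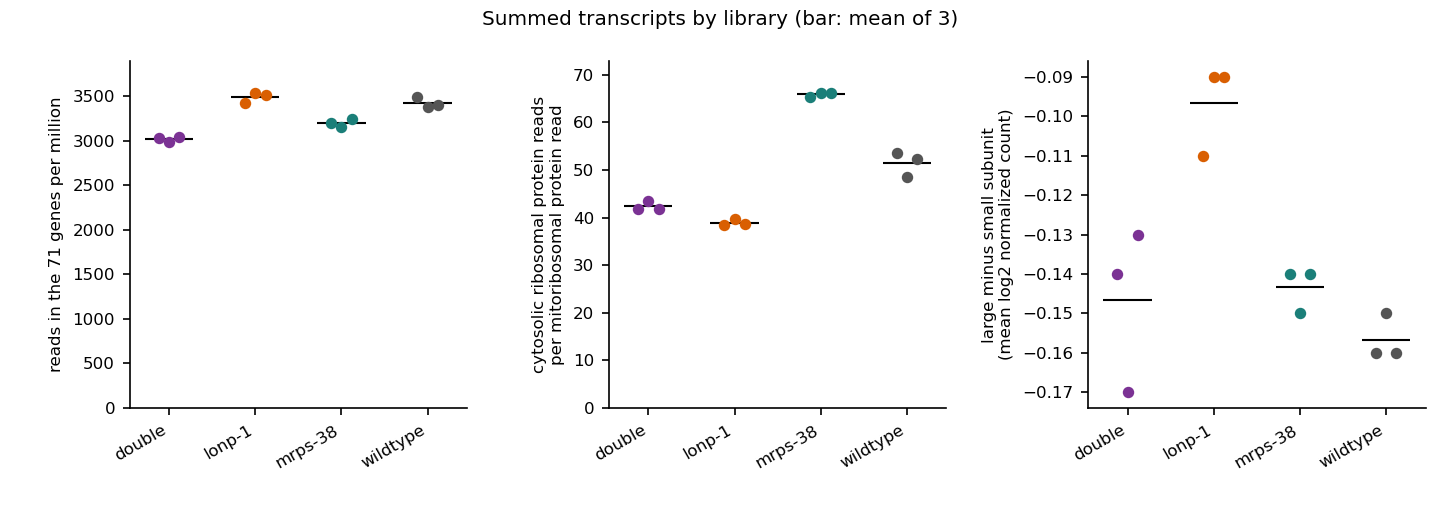
Summed transcripts in each of the 12 libraries (points) with the mean of 3 (bar): reads in the 71 mitoribosomal protein genes in RPM, reads in 78 cytosolic ribosomal protein genes per read in the 71 genes, and the difference between subunits in mean log2 normalized count, whose axis does not start at 0. The double mutant has the lowest share, at 2989 to 3039, mrps-38(P210L) the highest cytosolic ratio, at 65.2 to 66.2, and lonp-1(cmh24) the highest difference between subunits, at -0.11 to -0.09.

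Changes of single genes were tested with limma on log2 of the normalized count plus 1, over all 15717 genes that reached a mean of 10. Genes rose or fell where the p, adjusted by Benjamini-Hochberg over all of them, was under 0.05. Because the groups differ in size factor, each call was also taken with reads scaled to the library total and with TMM (trimmed mean of M values) factors. Scaling to the total moved the median of all tested genes by 0.23 (log2) in lonp-1(cmh24) against wildtype, -0.25 in mrps-38(P210L) against wildtype, 0.02 in the double mutant against wildtype, -0.21 with the double mutant against lonp-1(cmh24), 0.27 with it against mrps-38(P210L) and 0.04 in the interaction. TMM moved it by 0.04, -0.02, -0.11, -0.15, -0.09 and -0.13 in the same order. No member changed 2-fold in any comparison, whereas 30.3% of all tested genes were called at 2-fold or more in the double mutant against wildtype, 17.5% in lonp-1(cmh24) and 21.6% in mrps-38(P210L) against wildtype, 19.4% with the double mutant against lonp-1(cmh24) and 44.7% with it against mrps-38(P210L).

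The double mutant against wildtype gave the counts of members called that moved least with the scaling. Of the 71 genes 46 fell and 1 rose under the authors' factors, and the same 46 and 1 were called under all 3 scalings, which is 64.8% of the family lower and 1.41% higher. Of all tested genes 33.6% fell and 40.9% rose under the authors' factors, and 32.8% and 35.6% under all 3. Both subunits took part, with 27 of 42 large and 19 of 29 small subunit genes lower and a median log2 fold change of -0.21 in each, against a median of 0.09 for all tested genes. In all, 69 of the 71 lay below that median. With TMM factors the median of the 71 was -0.32, against -0.02 for all tested genes, and over all 71 genes it was -0.21 with the authors' factors. Scaled to the total, 46 fell and 2 rose, against 32.8% and 41.5% of all tested genes.

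Among the genes that fell in the double mutant was mrps-33 (chromosome IV, 8739470 to 8740026, minus strand of WBcel235), which encodes a small subunit protein found only in mitochondria. It had 747, 715 and 689 normalized counts in the double mutant, against 1232, 1147 and 1240 in wildtype, and all 3 double mutant libraries lay below every wildtype library. Its log2 fold change was -0.75 ± 0.07 (SE, n = 3 each, limma adjusted p = 7.3e-07). Next came genes of the large subunit whose proteins have bacterial counterparts. mrpl-15 had 1044, 1048 and 1115 normalized counts in the double mutant and 1756, 1528 and 1604 in wildtype (-0.61 ± 0.06). mrpl-35 had 531, 517 and 537 in the double mutant and 779, 821 and 821 in wildtype (-0.61 ± 0.07). mrpl-4, whose bacterial counterpart reaches into the exit tunnel, had 665, 702 and 737 in the double mutant and 1060, 1045 and 982 in wildtype (-0.55 ± 0.07). None of these groups overlapped. The gene that rose was mrps-14, described below.

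**Figure D2:**
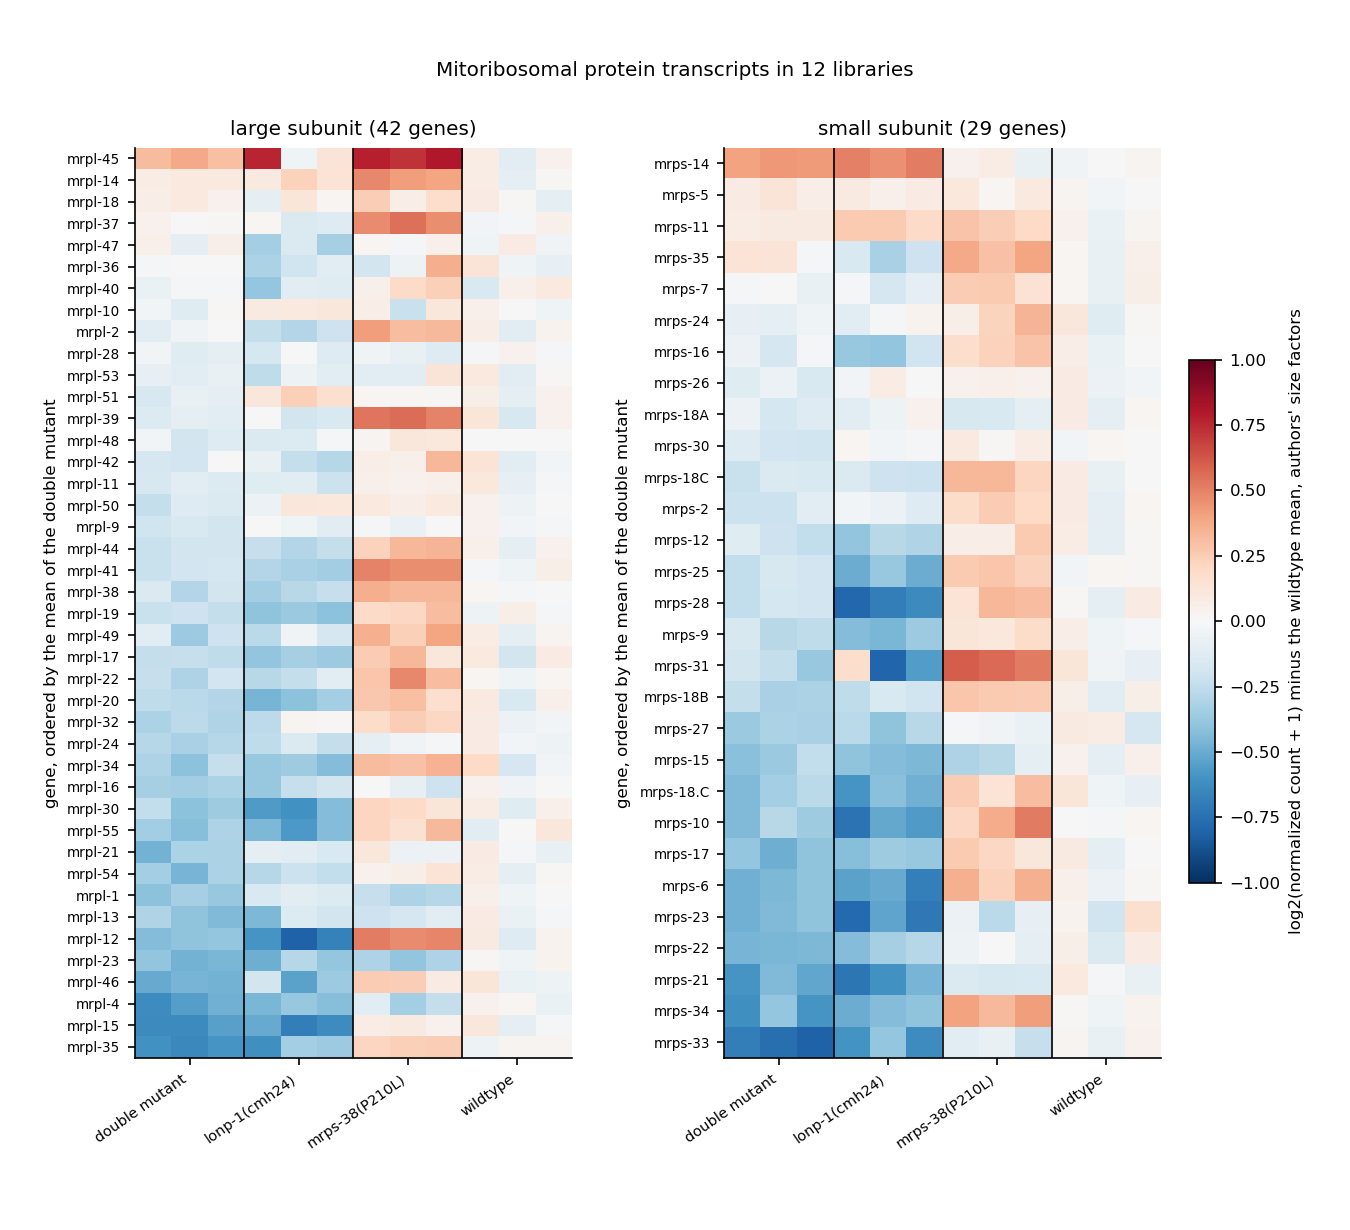
Difference of each library from the wildtype mean in log2(normalized count + 1), with the authors' size factors, for 42 large subunit genes (left) and 29 small subunit genes (right). Columns are the 3 libraries each of the double mutant, lonp-1(cmh24), mrps-38(P210L) and wildtype, and rows are ordered by the double mutant. Most rows are blue in the double mutant and lonp-1(cmh24), and red in mrps-38(P210L), which with reads scaled to the total had 29 members lower and 6 higher than wildtype.

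In lonp-1(cmh24) against wildtype 43 genes fell and 4 rose under the authors' factors, against 32.1% and 30.6% of all tested genes. Of these, 21 lower and 4 higher calls held under all 3 scalings, or 29.6% and 5.63% of the family against 20.5% and 30.6% of all tested genes. The median of the 71 was -0.25 with the authors' factors and -0.02 with reads scaled to the total, where 21 fell and 17 rose, against 20.5% and 41.6% of all tested genes. The family therefore lay below the median of all tested genes on both scales, but its direction against wildtype depended on the scaling. The genes that fell under all 3 scalings were 9 of the large and 12 of the small subunit.

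The gene with the lowest log2 fold change was mrps-28 (chromosome V, 19644239 to 19645676, plus strand), named after a small subunit protein whose mammalian counterpart is related to bacterial S1. It had 566, 602 and 626 normalized counts in lonp-1(cmh24), against 984, 914 and 1031 in wildtype. The groups were well apart, with a log2 fold change of -0.71 ± 0.07 (SE, n = 3 each, limma adjusted p = 9.79e-07). mrpl-12 (chromosome III, 10707761 to 10708521, plus strand), the counterpart of bacterial L7/L12 in the stalk, had 1202, 1035 and 1135 in lonp-1(cmh24) and 1928, 1656 and 1854 in wildtype (-0.69 ± 0.06). mrps-23, found only in mitochondria, had 430, 511 and 448 in lonp-1(cmh24) and 755, 642 and 824 in wildtype (-0.67 ± 0.10), and mrpl-15 had 1149, 1008 and 1054 in lonp-1(cmh24) and 1756, 1528 and 1604 in wildtype (-0.61 ± 0.06).

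The 4 genes that rose were mrps-14, mrps-11, mrpl-51 and mrpl-14. mrps-11, a protein of the small subunit platform in bacteria, had 1749, 1752 and 1670 normalized counts in lonp-1(cmh24) and 1502, 1398 and 1486 in wildtype, a log2 fold change of 0.24 ± 0.05 (SE, n = 3 each, limma adjusted p = 5.75e-04). The changes of mrpl-51 (0.17 ± 0.06) and mrpl-14 (0.15 ± 0.05) were small. The call of mrpl-51 was lost without replicate 2 of lonp-1(cmh24) or replicate 2 of wildtype, and that of mrpl-14 without replicate 2 or 3 of either group. mrps-11, mrpl-12, mrpl-14 and mrps-23 each overlap another gene on the opposite strand, and the sources used here do not say whether reads were counted by strand.

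In mrps-38(P210L) against wildtype the direction of the family turned with the scaling. Under the authors' factors 36 genes rose and 4 fell, against 31.5% and 34.7% of all tested genes, with medians of 0.16 for the large and 0.21 for the small subunit. Scaled to the total, 6 rose and 29 fell, against 16.9% and 49.1% of all tested genes, and the medians were -0.09 and -0.05. On both scales the family lay above the median of all tested genes, which was -0.01 with the authors' factors and -0.26 with reads scaled to the total. Only 6 higher and 4 lower calls held under all 3 scalings, or 8.45% and 5.63% of the family against 16.9% and 34.7% of all tested genes.

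The 6 genes that rose under all 3 scalings, mrpl-12, mrpl-14, mrpl-37, mrpl-39, mrpl-41 and mrpl-45, were all of the large subunit, and 4 of them encode proteins found only in mitochondria. mrpl-45, whose mammalian counterpart sits at the exit of the peptide tunnel and anchors the ribosome to the inner membrane, had 1182, 1136 and 1204 normalized counts in mrps-38(P210L) and 724, 637 and 710 in wildtype, a log2 fold change of 0.77 ± 0.16 (SE, n = 3 each, limma adjusted p = 0.00132). mrpl-39 had 1379, 1402 and 1345 in mrps-38(P210L) and 1038, 851 and 980 in wildtype (0.53 ± 0.07). mrpl-37 (chromosome II, 13568077 to 13575068, minus strand) had 1977, 2084 and 1963 in mrps-38(P210L) and 1397, 1401 and 1473 in wildtype (0.50 ± 0.05). mrpl-12 had 2577, 2513 and 2532 in mrps-38(P210L) and 1928, 1656 and 1854 in wildtype (0.49 ± 0.06). The groups did not overlap for any of them. mrps-31, with 623, 605 and 586 in mrps-38(P210L) and 444, 398 and 387 in wildtype (0.56 ± 0.19), rose under the authors' factors but was not called with reads scaled to the total (log2 fold change 0.31, limma adjusted p = 0.153).

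The 4 genes that fell in mrps-38(P210L) under all 3 scalings were mrpl-23, mrpl-1, mrpl-4 and mrps-15. mrpl-23, at the rim of the exit tunnel in bacteria, had 830, 781 and 829 normalized counts in mrps-38(P210L) and 1032, 996 and 1050 in wildtype (log2 fold change -0.34 ± 0.06). mrpl-1, the protein of the other stalk of the large subunit, had 1157, 1091 and 1113 in mrps-38(P210L) and 1399, 1313 and 1352 in wildtype (-0.27 ± 0.05). mrpl-4 and mrps-15 both stood at -0.23 ± 0.07, and the call of mrps-15 was lost without replicate 1 of mrps-38(P210L). mrpl-1 and mrps-15 each overlap another gene on the same strand. These 4 genes also fell in the double mutant and, with the authors' factors, in lonp-1(cmh24) against the same wildtype libraries, where mrpl-1 was not called with reads scaled to the total.

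The double mutant was set against lonp-1(cmh24) to see what the mrps-38 mutation changed in worms with the lonp-1 mutation. The family split under the authors' factors, with 12 genes higher and 9 lower against 29.8% and 24.5% of all tested genes, and a median of 0.01 in each subunit. When reads were scaled to the total 41 genes fell and 1 rose, against 42% and 18.3% of all tested genes. The calls that held under all 3 scalings were 9 lower and 1 higher, or 12.7% and 1.41% of the family against 24.5% and 18.2% of all tested genes. The gene that rose under all 3 was mrps-28, with 822, 862 and 852 normalized counts in the double mutant and 566, 602 and 626 in lonp-1(cmh24) (log2 fold change 0.50 ± 0.07, SE, n = 3 each, limma adjusted p = 4.49e-05).

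mrps-28 thus lay between lonp-1(cmh24) and wildtype in the double mutant, where it remained lower than in wildtype by 0.21 ± 0.07 on the log2 scale. mrps-35 (0.31 ± 0.06), mrpl-12 (0.28 ± 0.06) and mrpl-47 (0.28 ± 0.06) rose in the double mutant under the authors' factors but were not called with reads scaled to the total. Of the genes that fell under all 3 scalings, mrpl-51 had 776, 823 and 808 normalized counts in the double mutant and 936, 1024 and 968 in lonp-1(cmh24) (-0.28 ± 0.06). mrpl-1 had 1019, 1073 and 1040 in the double mutant and 1221, 1250 and 1232 in lonp-1(cmh24) (-0.24 ± 0.05), and mrpl-21 and mrpl-50 fell by 0.25 ± 0.07 and 0.22 ± 0.06 on the log2 scale.

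**Figure D3:**
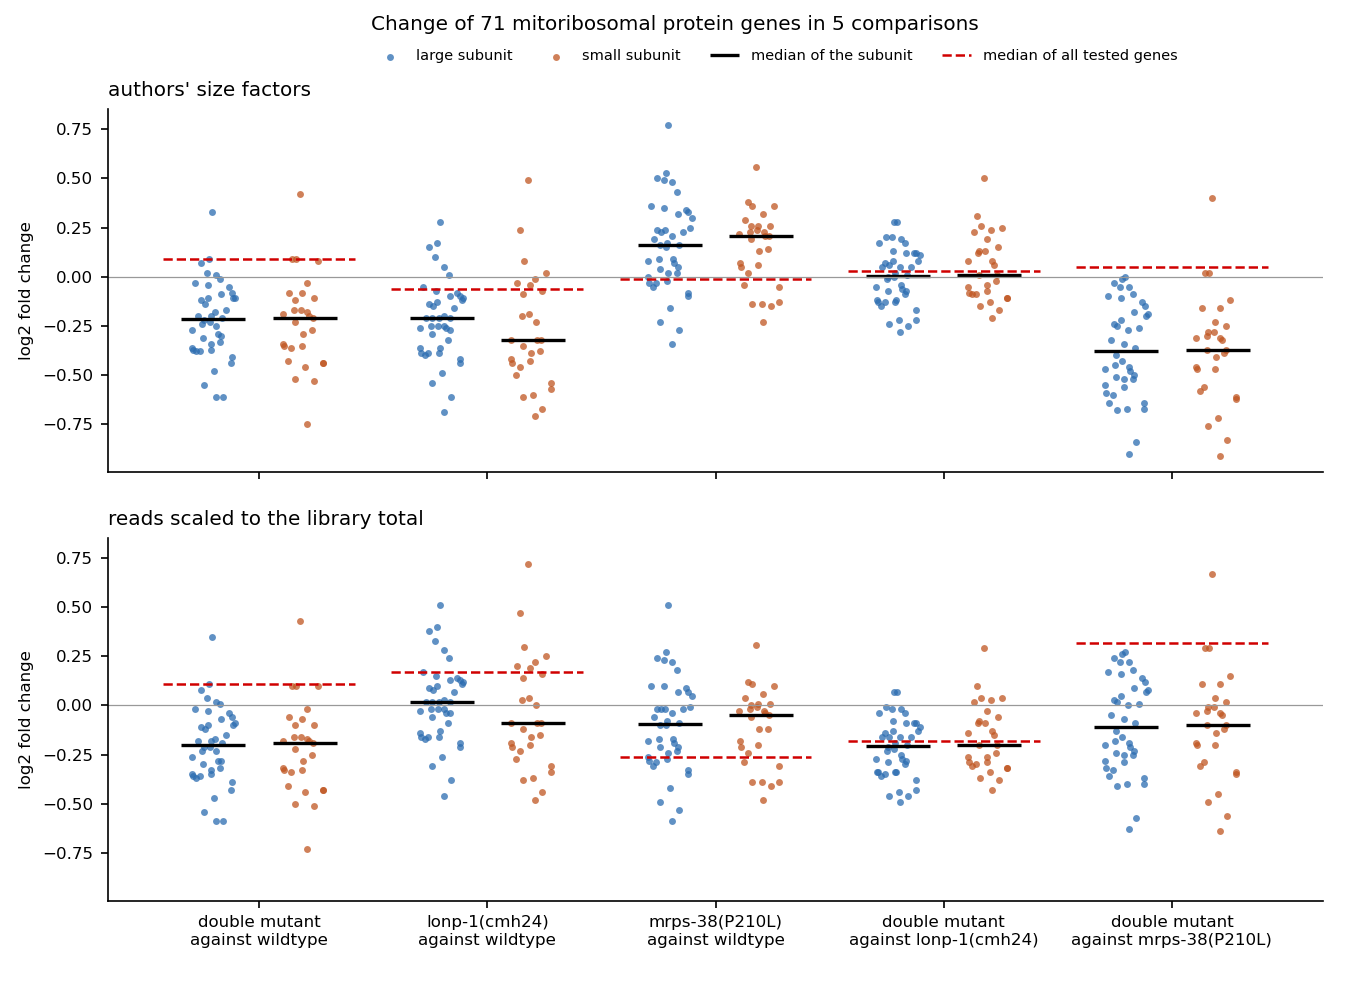
Log2 fold change of each member in 5 comparisons, large subunit blue and small subunit orange, with the authors' size factors (top) and with reads scaled to the library total (bottom). Black bars are the medians of the subunits and red dashed lines the medians of all tested genes. Both subunits have a median of -0.21 in the double mutant against wildtype on top, with little change below, while in mrps-38(P210L) against wildtype their medians are 0.16 and 0.21 on top and -0.09 and -0.05 below.

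The double mutant against mrps-38(P210L) shows the lonp-1 mutation in worms that carry the mitoribosomal mutation. Under the authors' factors 57 genes fell and 1 rose, against 40% and 43.6% of all tested genes, with medians of -0.38 in the large and -0.37 in the small subunit. Scaling to the total left 32 lower and 13 higher, against 31.3% and 51.7% of all tested genes, and the median of the 71 was -0.10 against 0.32 for all tested genes. Under all 3 scalings 32 genes fell and 1 rose, or 45.1% and 1.41% of the family against 31.3% and 41% of all tested genes. In all, 70 of the 71 lay below the median of all tested genes with the authors' factors.

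The genes that fell furthest with the authors' factors were mrps-34 and mrpl-12. mrps-34 (chromosome III, 4541420 to 4542452, minus strand), whose human counterpart is needed for a stable small subunit, had 564, 658 and 571 normalized counts in the double mutant and 1137, 1078 and 1149 in mrps-38(P210L). These groups were far apart, with a log2 fold change of -0.91 ± 0.07 (SE, n = 3 each, limma adjusted p = 2.08e-08). mrpl-12 had 1338, 1370 and 1380 in the double mutant and 2577, 2513 and 2532 in mrps-38(P210L) (-0.90 ± 0.06). mrpl-35 had 531, 517 and 537 in the double mutant and 938, 953 and 957 in mrps-38(P210L) (-0.84 ± 0.07), and mrps-31 had 359, 347 and 315 in the double mutant and 623, 605 and 586 in mrps-38(P210L) (-0.83 ± 0.19).

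The effects of the lonp-1 mutation with and without mrps-38(P210L) come from separate libraries and can be set side by side. Of the 71 genes 39 fell in both backgrounds under the authors' factors and 15 with reads scaled to the total, or 54.9% and 21.1% against 23.5% and 14.2% of all tested genes. Across the 71 genes the 2 log2 fold changes had a Pearson r of 0.62 and a Spearman rho of 0.59, and across all 15717 tested genes 0.38 and 0.46. For the mrps-38 mutation without and with the lonp-1 mutation, the members had r = 0.36 and rho = 0.39, whereas all tested genes had r = -0.58 and rho = -0.40. These values are across genes, which are not independent replicates, and a size factor moves all genes of a comparison alike.

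**Figure D4:**
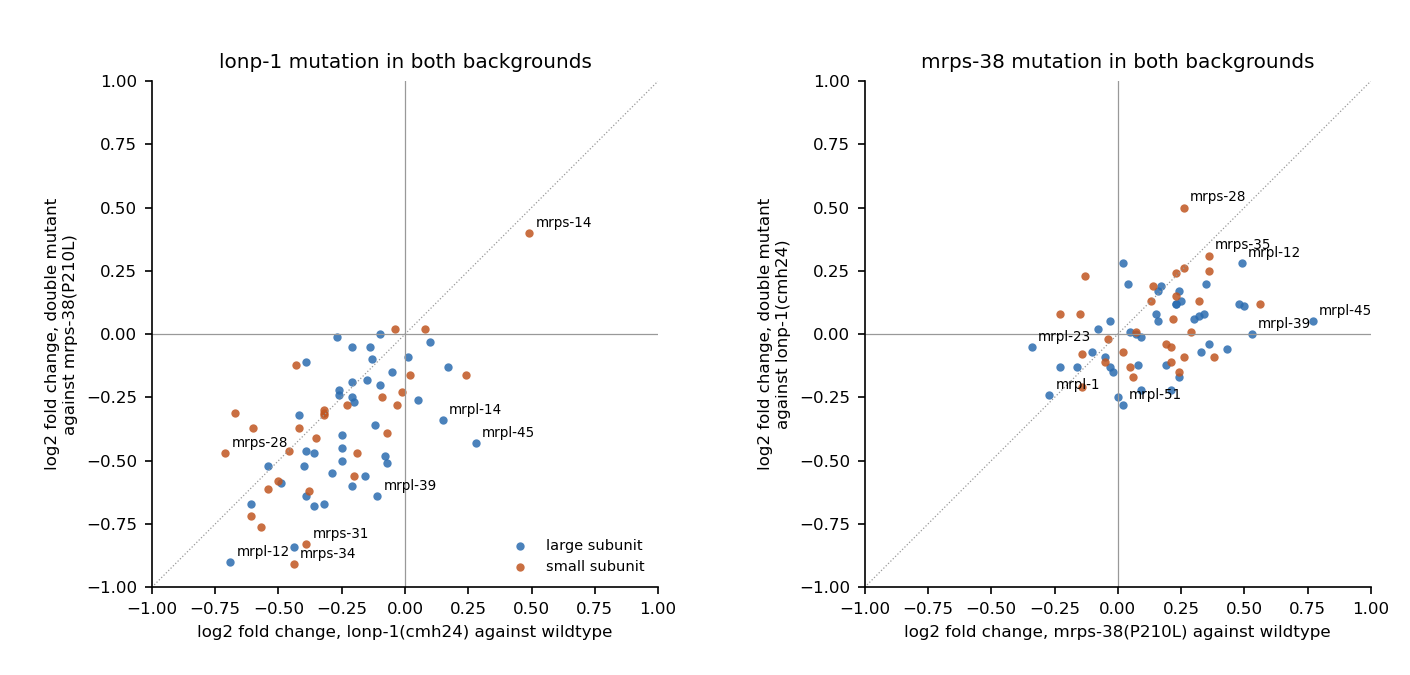
Log2 fold changes of the 71 genes with the authors' size factors, for the lonp-1 mutation with (y axis) and without (x axis) mrps-38(P210L) on the left, and for mrps-38(P210L) with (y axis) and without (x axis) the lonp-1 mutation on the right. Dotted lines mark equal change. On the left the points spread along the line with r = 0.62 and mrps-14 alone at the upper right, and on the right the spread is wider along the x axis, with r = 0.36. Both point clouds would shift as a whole under another scaling.

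The interaction, the effect of the lonp-1 mutation with mrps-38(P210L) minus its effect without, was lower than 0 for 23 genes and higher for 5, against 31.6% and 34.4% of all tested genes. On the scale of the library total the counts were 19 and 6, against 29.8% and 35.6%, and under all 3 scalings 19 and 0, or 26.8% and 0% of the family against 29.7% and 29.9% of all tested genes. Most of these 19 were large subunit genes, 13 of 42, with 6 of 29 in the small subunit. Of the 15 large subunit genes whose proteins are found only in mitochondria, 10 were lower under the authors' factors and none higher, with a median of -0.30. Of the 27 with bacterial counterparts 5 were lower and 2 higher, with a median of -0.10. The difference between these classes was not tested.

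mrpl-45 had the lowest interaction at -0.72 ± 0.22 (SE, limma adjusted p = 0.0154), a value to which replicate 1 of lonp-1(cmh24) contributes, and stood at -0.48 to -0.88 when each library was left out in turn. mrpl-39 had -0.53 ± 0.10, mrpl-14 had -0.49 ± 0.08 and mrps-34 had -0.47 ± 0.09. For mrpl-39, mrpl-14 and mrps-34 the 3 mrps-38(P210L) libraries had the highest normalized counts of all 12, and for mrpl-45 replicate 1 of lonp-1(cmh24) lay among them. The interactions above 0, mrps-23 (0.36 ± 0.14), mrps-15 (0.31 ± 0.10), mrpl-23 (0.28 ± 0.09), mrpl-47 (0.26 ± 0.09) and mrps-28 (0.24 ± 0.10), were not called with TMM factors.

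Read across the genotypes, the most frequent pattern under the authors' factors was lower in lonp-1(cmh24), higher in mrps-38(P210L) and lower in the double mutant, each against wildtype. It was shown by 22 of the 71 genes (31% against 9.52% of all tested genes), 12 of the large and 10 of the small subunit, but under all 3 scalings by mrpl-12 alone (1.41% against 3.18%). A further 13 (18.3% against 8.86%) were lower in lonp-1(cmh24) and the double mutant and not called in mrps-38(P210L). Under all 3 scalings 17 genes (23.9% against 9.36%) were lower in both, without a call in mrps-38(P210L) that held under all 3. Some of these 17, such as mrps-34, rose in mrps-38(P210L) with the authors' factors. Others, such as mrpl-15, fell there with reads scaled to the total. With the authors' factors 11 genes (15.5% against 6.08%) were called in no comparison with wildtype. Of the 4 group means, the mrps-38(P210L) mean was the highest for 50 genes and the lowest was the double mutant mean for 30 and the lonp-1(cmh24) mean for 34. With reads scaled to the total, lonp-1(cmh24) was the highest for 29 genes, wildtype for 24 and mrps-38(P210L) for 17, and the double mutant was the lowest for 36. These orders were not counted over all tested genes, so they cannot be read as particular to the family.

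Under the authors' factors and under all 3 scalings, mrps-14 was the only member that rose in the double mutant against wildtype and against mrps-38(P210L). This gene (chromosome II, 10240277 to 10242490, minus strand), with the highest FPKM of the 71, had 2447, 2492 and 2483 normalized counts in the double mutant, 2622, 2542 and 2643 in lonp-1(cmh24), 1908, 1951 and 1761 in mrps-38(P210L), and 1805, 1856 and 1889 in wildtype. Both groups with the lonp-1 mutation lay above both groups without it. The log2 fold change was 0.42 ± 0.05 in the double mutant against wildtype (limma adjusted p = 3.78e-06), 0.49 ± 0.05 in lonp-1(cmh24) against wildtype and 0.40 ± 0.05 in the double mutant against mrps-38(P210L). These 3 calls held under all scalings. Its share of the reads of the 71 genes, which needs no size factor, was 3.73% ± 0.037 in the double mutant, 3.93% ± 0.094 in lonp-1(cmh24), 2.21% ± 0.12 in mrps-38(P210L) and 2.44% ± 0.12 in wildtype (SD, n = 3 each).

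mrps-5 (chromosome V, 12563487 to 12565801, plus strand), the counterpart of bacterial S5 near the decoding site, had the steadiest counts of the genes named here. It had 2410, 2490 and 2385 normalized counts in the double mutant, 2433, 2366 and 2415 in lonp-1(cmh24), 2458, 2310 and 2440 in mrps-38(P210L), and 2331, 2238 and 2276 in wildtype. It was called in no comparison under the authors' factors, with log2 fold changes of 0.09 in the double mutant, 0.08 in lonp-1(cmh24) and 0.07 in mrps-38(P210L) against wildtype. Scaled to the total it stood at 0.10, 0.30 and -0.18 in the same order, all called, so the steadiness holds on the authors' scale only. Its share of the reads of the 71 genes was 3.66% ± 0.095, 3.64% ± 0.073, 2.83% ± 0.081 and 3% ± 0.048 in the double mutant, lonp-1(cmh24), mrps-38(P210L) and wildtype.

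mrpl-12 covered the widest range of the 8 genes plotted by library, with a mean of 1363 ± 22.1 normalized counts in the double mutant, 1124 ± 83.9 in lonp-1(cmh24), 2541 ± 33 in mrps-38(P210L) and 1813 ± 141 in wildtype (SD, n = 3 each). All 4 groups were separate. Its share of the reads of the 71 genes was 2.05% ± 0.03, 1.7% ± 0.14, 3% ± 0.03 and 2.38% ± 0.1 in the same order. mrpl-2, which lies at the peptidyl transferase center in bacteria, stood at -0.05 ± 0.06 in the double mutant against wildtype and was not called there.

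**Figure D5:**
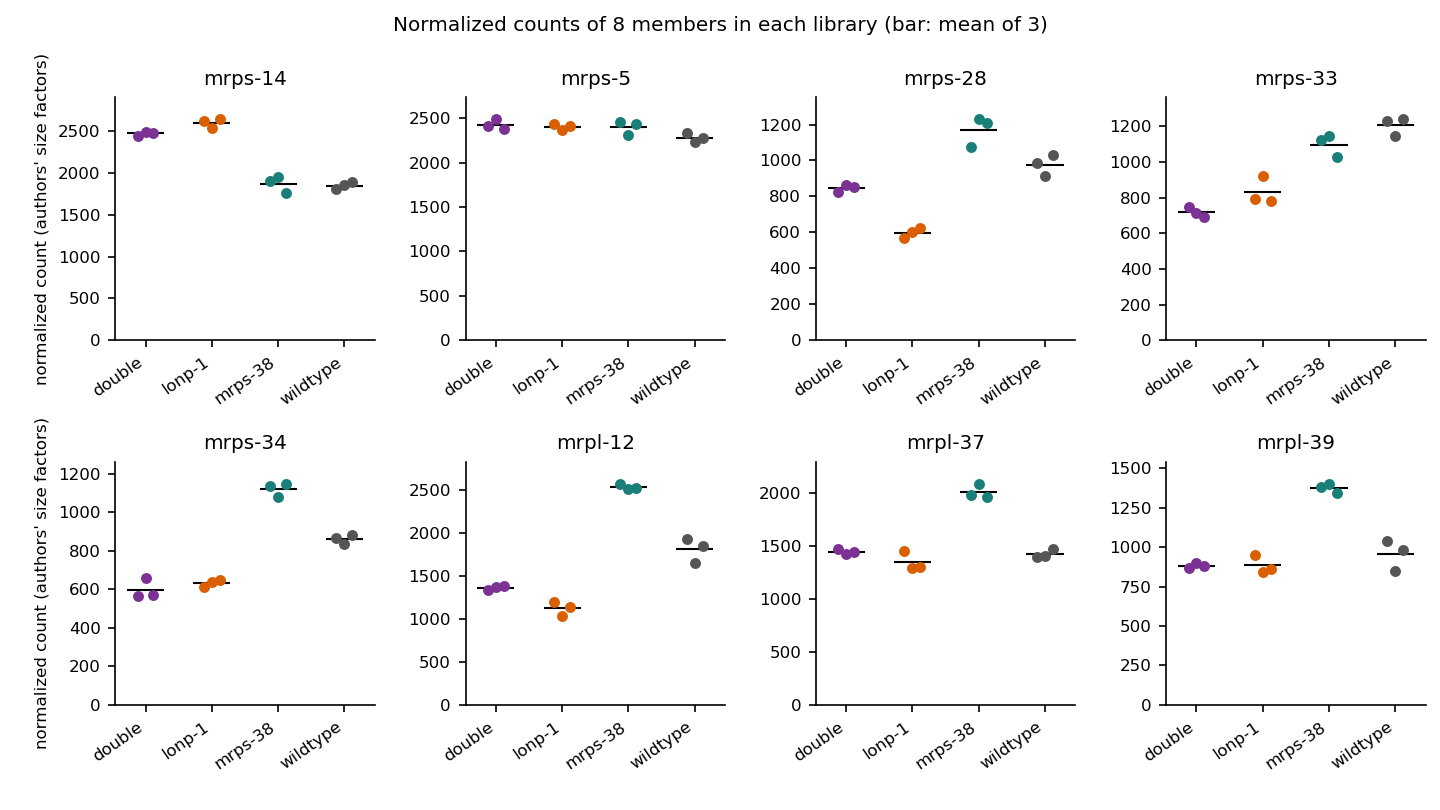
Normalized counts (authors' size factors, axes from 0) of 8 members in the 12 libraries, with the mean of 3 as a bar. mrps-14 is higher in both groups with the lonp-1 mutation, mrps-5 lies between 2238 and 2490 throughout, mrps-28 is lowest in lonp-1(cmh24) at 566 to 626, and mrps-34, mrpl-12, mrpl-37 and mrpl-39 are highest in mrps-38(P210L). With reads scaled to the library total mrps-5 is called higher in lonp-1(cmh24) and lower in mrps-38(P210L) than in wildtype.

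The 2 subunits moved alike in most comparisons. Under the authors' factors the interaction had medians of -0.11 in the large and -0.09 in the small subunit, and lonp-1(cmh24) against wildtype had -0.21 and -0.32, the widest gap of the 6. Within the large subunit, the 15 genes found only in mitochondria had a median of -0.12 in the double mutant against wildtype, with 7 lower, and the 27 with bacterial counterparts -0.29, with 20 lower. Within the small subunit the order was the other way, with -0.30 for the 10 genes found only in mitochondria, 7 of them lower, and -0.19 for the 19 with bacterial counterparts, of which 12 were lower and 1 higher. The 9 genes at the peptide exit had 7 lower and the 4 of the stalks 3 lower. Of all tested genes 33.6% were lower and 40.9% higher in the double mutant against wildtype. None of these differences between classes was tested.

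Other genes of mitochondrial translation were counted in 3 lists, to be read against the shares of all tested genes given above for each comparison (40.9% higher and 33.6% lower in the double mutant, 30.6% and 32.1% in lonp-1(cmh24), 31.5% and 34.7% in mrps-38(P210L), with the authors' factors). Their difference from the ribosomal proteins was not tested. A list of elongation, initiation and release factors had 7 matched genes. They include mttu-1, which encodes an enzyme that modifies mitochondrial tRNA and is not such a factor. Of the 7, 3 rose and 1 fell in the double mutant, 6 rose and 1 fell in lonp-1(cmh24) and 3 rose and 2 fell in mrps-38(P210L), each against wildtype. Scaled to the total these were 3 and 1, 6 and 0, and 2 and 4. mttu-1, a member of this list, had 178 ± 13.4 normalized counts in the double mutant, 206 ± 14.5 in lonp-1(cmh24), 73 ± 6.33 in mrps-38(P210L) and 81 ± 16.8 in wildtype. It rose by 1.14 ± 0.15 in the double mutant and 1.35 ± 0.15 in lonp-1(cmh24) against wildtype on the log2 scale. The elongation factors tufm-1 and gfm-1 rose in mrps-38(P210L) against wildtype by 0.65 ± 0.06 and 0.54 ± 0.05.

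The list for tRNA charging had 17 matched genes. They include hars-1, kars-1, gars-1 and tars-1, which also serve translation in the cytosol, so the counts are not of mitochondrial translation alone. Of the 17, 6 rose and 3 fell in the double mutant, 6 rose and 5 fell in lonp-1(cmh24) and 5 rose and 8 fell in mrps-38(P210L) against wildtype. On the scale of the total these were 6 and 3, 10 and 1, and 3 and 12, against 41.5% and 32.8%, 41.6% and 20.5%, and 16.9% and 49.1% of all tested genes. Of 17 genes in a mixed list of mitoribosome assembly, mitochondrial RNA and DNA upkeep and proteases, which holds lonp-1 itself, 11 rose and 4 fell in the double mutant, 11 rose and 4 fell in lonp-1(cmh24) and 6 rose and 5 fell in mrps-38(P210L). By library total these were 11 and 4, 13 and 2, and 1 and 8, so that the balance in mrps-38(P210L) turned with the scaling. In this list eral-1, a GTPase of small subunit assembly, rose by 1.09 ± 0.08 in lonp-1(cmh24) against wildtype. mtg-1, a GTPase of large subunit assembly, rose by 0.71 ± 0.09 in the double mutant against wildtype. The largest fall of the list there was that of mpst-7, with a log2 fold change of -1.67 ± 0.1. This gene is named after the mercaptopyruvate sulfurtransferases, which are outside the kinds of genes given above for the list. twnk-1, the mitochondrial DNA helicase, fell by 1.58 ± 0.13 in the double mutant and rose by 0.81 ± 0.13 in mrps-38(P210L), each against wildtype. All of these named calls held with reads scaled to the total.

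A pair of other large complexes was read beside the family. The 78 cytosolic ribosomal protein genes had 72 lower and 2 higher in the double mutant (median -0.46), 76 lower and none higher in lonp-1(cmh24) (-0.60) and 2 lower and 70 higher in mrps-38(P210L) (0.49), each against wildtype. Scaled to the total these were 71 and 2, 74 and 0, and 2 and 51. Of 13 tested nuclear genes of respiratory complex I, 6 fell in the double mutant, all 13 in lonp-1(cmh24) and 1 in mrps-38(P210L), where 11 rose. The complex I counts with reads scaled to the total were 6, 3 and 2 lower, and 6 higher in mrps-38(P210L). In the double mutant, lonp-1(cmh24) and mrps-38(P210L), 33.6%, 32.1% and 34.7% of all tested genes were lower with the authors' factors, and 40.9%, 30.6% and 31.5% higher. Scaled to the total, 32.8%, 20.5% and 49.1% were lower and 41.5%, 41.6% and 16.9% higher.

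In the genome the 71 genes were spread over chromosomes I (15), II (13), III (22), IV (11) and V (10), with none on X. In the Ensembl 115 annotation of WBcel235, 25 of them (35.2%) had a gene on the same strand that ended within 500 bases upstream, against 17.7% of 17792 protein-coding genes. A same-strand neighbour on either side was that close for 41 of the 71 (57.7%) and for 31.1% of protein-coding genes. Many C. elegans genes are transcribed in operons with such short gaps, but operon membership was not looked up. mrps-2 and mrpl-4, a small and a large subunit gene, lie 105 bases apart on the plus strand of chromosome V, and both fell in the double mutant against wildtype, mrpl-4 by 0.55 ± 0.07 and mrps-2 by 0.18 ± 0.06 on the log2 scale. mrps-22 lies 105 bases downstream of dap-3, the gene of another small subunit protein whose name lies outside the naming rule. In 23 of the 71 genes the annotated span overlaps another gene of the table, 8 on the same and 15 on the opposite strand. They include mrpl-1, mrps-2 and mrps-15 on the same strand, and mrpl-35 and mrpl-39 on the opposite strand. Among the 48 genes without such an overlap, 33 fell and 1 rose in the double mutant against wildtype under all 3 scalings. The counts were 15 and 2 in lonp-1(cmh24) against wildtype, and 24 and 1 in the double mutant against mrps-38(P210L). Of all tested genes 32.8% fell and 35.6% rose, 20.5% and 30.6%, and 31.3% and 41% in the same order.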

How the data were processed

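STAR, featureCounts, DESeq2 and the WBcel235 build are named in the submitters' processing notes. Their versions, the annotation release and the strand setting of the counting are not given in the sources used here. Deposited by the authors were a table of DESeq2 normalized counts (a signal, each library's counts divided by 1 size factor) and a table of FPKM (reads scaled to gene length and library size). Whole reads were recovered from the normalized counts (100.0% of values within 0.01 of a whole number of reads).

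limma 3.58.1 (R 4.3.3, statmod 1.5.0, trend and robust) was fitted to log2 of the normalized count + 1 for 15717 genes with a mean of at least 10, all 12 libraries in 1 fit with a mean per group, two-sided, with 6 contrasts and Benjamini-Hochberg adjustment at 0.05 over all tested genes. A gene called under all 3 scalings passed with the authors' factors, with reads scaled to the library total and with TMM factors. That rule was chosen after the data were seen. The program was checked on simulated data. Alternatives were pseudocounts of 0.5 and 5, no filter and a mean of at least 50, the FPKM table (log2 of FPKM + 0.1, mean of at least 0.5), count tests of the recovered reads (edgeR 4.0.16, DESeq2 1.42.0), a block for the replicate number, a fit of only the groups compared, and each library left out.

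Genes were named by rule: per comparison the 4 largest rises and falls among called members, the 4 highest and 3 lowest by FPKM, in each subunit the largest interaction, and mrps-5, mrpl-12, mrpl-1, mrpl-2 and mrpl-37, and from other lists of mitochondrial translation up to 3 called genes in each direction. Of the genes that the rule took from these other lists, only some are given in the text, picked with their values known. Genes outside the rule (mrpl-41, mrps-2, mrps-22, mrps-18A, mrps-30) were named after their values were seen. The members and lists were chosen with earlier results of these data known. Of the entries of the lists, 7 of 15 of the translation factor list (with mttu-1), 17 of 27 genes of tRNA charging and 17 of 24 of the mixed list had a match in the table. Neighbours came from Ensembl release 115 of WBcel235, in which all 71 members had the start and end of the deposited table. Members were classed as having a bacterial counterpart or not by the number in their symbol, as in mammalian mitoribosomes. The mrps-38 transcript is not reported.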

Additional observations from a re-analysis of the deposited data

Results flagged for a closer look

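The interaction test of limma over all 15717 genes called 23 of the 71 members lower and 5 higher than 0. Of the members named in the text, 19 had by this test an effect of the lonp-1 mutation that differed with and without mrps-38(P210L). Some of them were named because of that test, so their number was in part set by the naming. Such differences were common, since 31.6% of all tested genes had an interaction lower than 0 and 34.4% a higher one. The genes below 0 were mrpl-45 (-0.72), mrpl-39 (-0.53), mrpl-14 (-0.49), mrps-34 (-0.47), mrpl-35 (-0.40), mrps-11 (-0.40), mrpl-37 (-0.39), mrpl-41 (-0.35), mrps-2 (-0.32), mrpl-46 (-0.32), mrpl-50 (-0.31), mrpl-51 (-0.30), mrpl-21 (-0.25) and mrps-30 (-0.22), each as log2 fold change with minus without the mrps-38 mutation. Of these, mrpl-46 (limma adjusted p = 0.052) and mrpl-21 (0.0846) were not called with reads scaled to the total. With the authors' factors mrpl-14, mrps-11 and mrpl-51 had log2 fold changes of -0.34, -0.16 and -0.13 in the double mutant against mrps-38(P210L), the last not called, and of 0.15, 0.24 and 0.17 in lonp-1(cmh24) against wildtype. These opposite signs rest on that scaling, since with reads scaled to the total the values in the double mutant against mrps-38(P210L) were -0.07 (not called), 0.11 and 0.14 (both called). The genes above 0 were mrps-23 (0.36), mrps-15 (0.31), mrpl-23 (0.28), mrpl-47 (0.26) and mrps-28 (0.24), and none of these was called with TMM factors. With 3 libraries per group, no test for a single outlying library was made. Beside these values, yolk, sperm and germline transcripts also differed between the groups, and their part in the interactions was not tested.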

How the results depend on the processing

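The scaling was the choice that moved the counts of members called. With reads scaled to the library total, the FPKM table and TMM factors in this order, lonp-1(cmh24) against wildtype had 17, 17 and 5 higher and 21, 21 and 41 lower, mrps-38(P210L) against wildtype 6, 6 and 33 higher and 29, 29 and 4 lower, the double mutant against lonp-1(cmh24) 1, 1 and 1 higher and 41, 41 and 32 lower, the double mutant against mrps-38(P210L) 13, 14 and 1 higher and 32, 33 and 63 lower, and the interaction 6, 6 and 0 higher and 19, 20 and 35 lower. In the double mutant against wildtype they had 2, 3 and 1 higher and 46, 46 and 55 lower, DESeq2 gave 2 higher and a fit of only the groups compared 2. That fit gave 2 higher in lonp-1(cmh24) against wildtype and was not applicable to the interaction. Calls of single genes were also lost when 1 library was left out. Those kept in every such fit were 40 of 47 in the double mutant against wildtype, 43 of 47 in lonp-1(cmh24) and 30 of 40 in mrps-38(P210L). For the double mutant they were 13 of 21 against lonp-1(cmh24) and 55 of 58 against mrps-38(P210L), and for the interaction 21 of 28. Leaving out each library gave 1 to 2 members higher and 40 to 50 lower in the double mutant against wildtype, 2 to 4 and 42 to 46 in lonp-1(cmh24), 28 to 39 and 3 to 6 in mrps-38(P210L), 8 to 13 and 6 to 11 for the double mutant against lonp-1(cmh24), 1 to 1 and 55 to 60 against mrps-38(P210L), and 2 to 6 and 19 to 27 for the interaction.

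Of 63 pairs of a named member and a comparison, 7 turned in sign with reads scaled to the total and with FPKM, both at the same values: mrpl-1 (0.10) and mrpl-37 (0.14) in lonp-1(cmh24) against wildtype, mrps-5 (-0.18) and mrps-14 (-0.24) in mrps-38(P210L) against wildtype, mrps-5 (-0.20) and mrpl-2 (-0.02) for the double mutant against lonp-1(cmh24), and mrpl-1 (0.17) for the double mutant against mrps-38(P210L). With TMM, mrps-5 turned for the double mutant against lonp-1(cmh24) (-0.14). For these 63, edgeR, DESeq2, the pseudocounts, the filters and the replicate block changed no call. The replicate numbers did not pair the libraries (18 same-numbered pairs, correlations of -0.16 to 0.12). With the replicate block, 46 members fell and 1 rose in the double mutant against wildtype. Counting mrps-18A and mrps-30 with the large subunit, as in mammalian structures, was added after the data were seen and gave medians of -0.20 (large) and -0.23 (small) in the double mutant against wildtype. The lowest count of a member in any library was 287 reads.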
